A study of Homo sapiens with 12 samples.

Results

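The genes described here are 35 genes of regulated exocytosis, which comprise SNARE proteins, their Sec1/Munc18 partners, synaptotagmins, complexins, secretory Rab GTPases and their effectors, priming factors and the proteins that take SNARE complexes apart. They were chosen by gene symbol, and all 35 were found among the 28278 symbols of the count table. The cells were pancreatic alpha cells derived in culture from the human embryonic stem cell line HUES-8, a long-established line. All 12 samples were kept for 48 h in 30 mL bioreactors stirred at 40 rpm, 6 with 5 uM tunicamycin and 6 with the DMSO vehicle. Tunicamycin blocks N-linked glycosylation in the endoplasmic reticulum (ER) and is used to cause ER stress. Samples are labelled as biological replicates 1 to 6 in each group, and numbers 1 to 3 form sequencing batch 1 and numbers 4 to 6 batch 2. All samples come from 1 line, so differences between lines were not measured.

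Alpha cells store glucagon in dense-core granules and release it when calcium enters the cell. Granules are brought to the plasma membrane by Rab GTPases and their effectors and made ready by priming factors. A SNARE on the granule (a VAMP protein) then zips together with SNAREs of the plasma membrane (a syntaxin and a SNAP-25 family protein), assisted by a Sec1/Munc18 protein and timed by complexins and calcium-binding synaptotagmins. After fusion, the ATPase NSF and its adaptor alpha-SNAP pull the spent complex apart. In bulk RNA, fewer cells of a type and less RNA per cell cannot be told apart.

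The libraries held 17523442 to 28872269 counts each. The ER chaperone gene HSPA5 averaged 5270 ± 1022 CPM (read counts scaled to a common library size, on library sizes scaled by the TMM method) with tunicamycin and 845 ± 144 CPM with DMSO, and the stress transcription factor gene DDIT3 averaged 115 ± 19.2 CPM with tunicamycin and 26.2 ± 3.68 CPM with DMSO (SD, n = 6 each). The tunicamycin libraries were therefore the ones with high ER stress genes, as labelled. Summed over 10 alpha cell markers, the level was 59070 to 94600 CPM with tunicamycin and 79500 to 118300 CPM with DMSO. Most of this sum was GCG (mean 74630 CPM with DMSO) and TTR (21520 CPM). Of the 10 markers, 2 had a log2 fold change (tunicamycin over DMSO) above 0 and 8 below 0. Summed over 12 mesenchyme markers, the level was 101 to 653 CPM with tunicamycin and 188 to 1610 CPM with DMSO. The highest values belonged to DMSO 1 and DMSO 3. Duct and acinar markers summed to 166 to 345 CPM with tunicamycin and 386 to 603 CPM with DMSO, with no overlap, and heart muscle markers to 7.07 to 1065 CPM with tunicamycin and 6.07 to 2047 CPM with DMSO. Number 5 had the highest heart muscle values in both groups. None of these marker genes was at 0 in every sample.

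With tunicamycin, 4 of the 35 genes were higher and 1 was lower than with DMSO. The synaptotagmin genes SYT4 and SYT5, the related DOC2B and the complexin gene CPLX1 were higher, and the SNARE gene SNAP23 was lower, at an adjusted p under 0.05 (edgeR's quasi-likelihood test with sequencing batch in the model, Benjamini-Hochberg adjusted over all 17137 genes tested). All 35 genes passed the filter on low counts, DOC2B only through its tunicamycin samples. The DMSO counts of DOC2B (5 to 9) were all under the filter's minimum count of 10. Its call thus depends on the group in which it is high and is not separate support for a rise. The counts of higher genes given here include it. The 5 called genes are 14.3% of the 35, against 7.84% of all genes tested, and the 4 higher and 1 lower compare with 4.56% and 3.29% of all genes called in those directions. With the sample number as a block, 9 of the 35 were higher and 2 lower, or 31.4% of them, against 17.3% of all genes (8.92% higher and 8.4% lower). The blocked fit added SNAP25, SYT11, SYT13, RPH3AL and UNC13A among the higher genes and RAB3D among the lower. DESeq2 with batch called 7 higher and 2 lower, against 6.4% and 5.9% of all genes. The median log2 fold change of the 35 genes was 0.11, and that of all genes tested was -0.01. The median of the 35 genes was 0.02 with the mesenchyme covariate described below, 0.04 without DMSO 1, 0.06 without tunicamycin 2 or tunicamycin 3, and 0.18 without tunicamycin 1. In none of the 35 did the 6 tunicamycin values and the 6 DMSO values lie wholly apart, as they did in 3.77% of all genes (2.47% with tunicamycin higher and 1.3% with it lower).

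**Figure D1:**
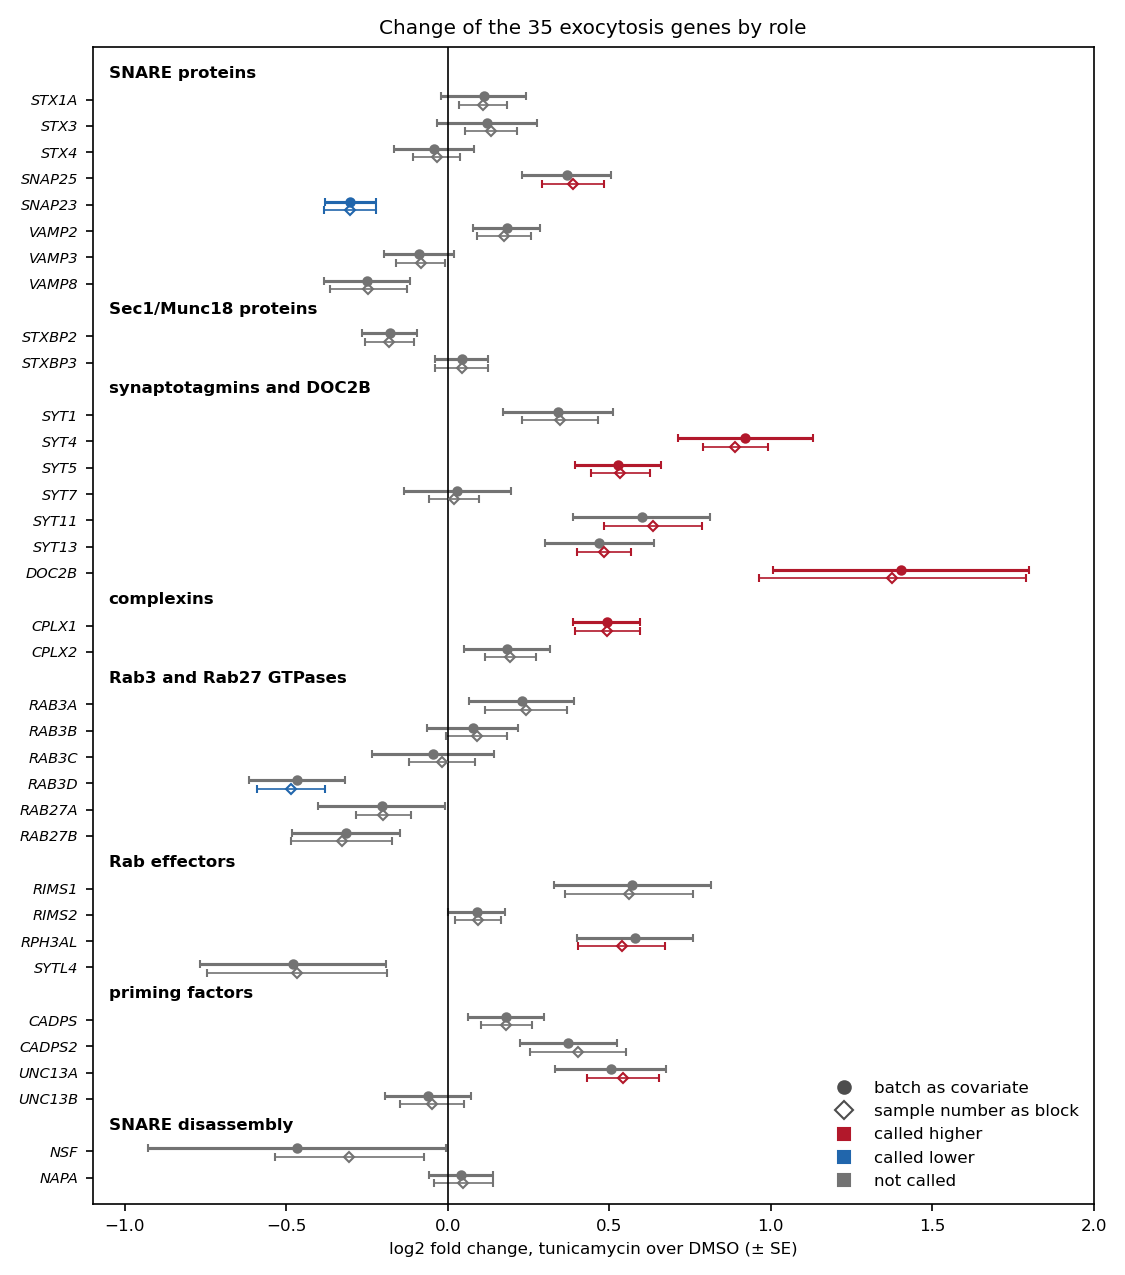
Log2 fold change of each of the 35 genes, tunicamycin over DMSO, with its standard error, grouped by role. Filled circles are the fit with batch as a covariate and open diamonds the fit with the sample number as a block, and colour marks genes called higher or lower. The synaptotagmins with DOC2B (7 genes) and both complexins lie right of 0 with batch as a covariate (SYT7 falls below 0 with upper-quartile scaling), and most Rab GTPases lie left of it.

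The summed level of the 35 genes was 3739 to 5268 CPM with tunicamycin and 3181 to 4552 CPM with DMSO, so the groups overlapped, and number 1 was lowest in each group. The median sum of the mesenchyme markers was 248.6 CPM with tunicamycin and 461 CPM with DMSO. With the mean log2 CPM of the mesenchyme markers as a further covariate, none of the 35 genes was called higher (edgeR), against 3.23% of all genes (5.02% in either direction), although 4 had an unadjusted p under 0.05 in that direction. RAB3D was then the 1 gene called lower (log2 fold change -0.64, adjusted p = 0.0314), against 1.79% of all genes. The 5 genes called without this covariate had adjusted p-values of 0.0706 (CPLX1) to 0.178 (DOC2B) with it, while their log2 fold changes kept their signs, at 0.66 for SYT4, 0.46 for SYT5, 1.25 for DOC2B, 0.43 for CPLX1 and -0.27 for SNAP23. Of the genes called with the block alone, SNAP25, SYT11 and SYT13 had log2 fold changes of 0.18, 0.34 and 0.17 with this covariate, against 0.37, 0.60 and 0.47 without it. Of the 12 mesenchyme markers themselves, 11 had log2 fold changes below 0. With the sample number as a block 9 were called lower, against 8.4% of all genes, and with batch as a covariate none was. The covariate thus moved with treatment, so this fit cannot tell an effect of treatment from a share of other cells. The part of other cell types in the changes described below was not tested.

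The level of each gene per kilobase of exon gives their order in DMSO cells. STX1A, a plasma membrane syntaxin of regulated secretion, was highest in DMSO cells, with 75.1 ± 13.3 CPM per kb with tunicamycin and 69.4 ± 9.90 CPM per kb with DMSO (SD, n = 6 each). The granule SNARE gene VAMP2 followed with 75.2 ± 13.4 CPM per kb with tunicamycin and 66.2 ± 9.44 CPM per kb with DMSO. The calcium sensor gene SYT7 had 63.96 ± 13.99 CPM per kb with tunicamycin and 62.7 ± 11.9 CPM per kb with DMSO. These 3 did not differ in DMSO cells beyond their spread. SNAP25 came next with 65.3 ± 7.29 CPM per kb with tunicamycin and 50.6 ± 11.1 CPM per kb with DMSO. At the lower end in DMSO cells stood NSF, SYTL4, RIMS1 and DOC2B, with means of 1.36, 0.301, 0.223 and 0.0442 CPM per kb. Apart from these 4 genes, DMSO means reached from 1.94 CPM per kb (RAB27B) up to STX1A. Annotated exons of other genes cover 17.9% of the exon length of STX1A, 17.5% of SYTL4 and 9.08% of RAB3A on the opposite strand and 13.2% of VAMP2 on the same strand, so their levels are uncertain.

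**Figure D2:**
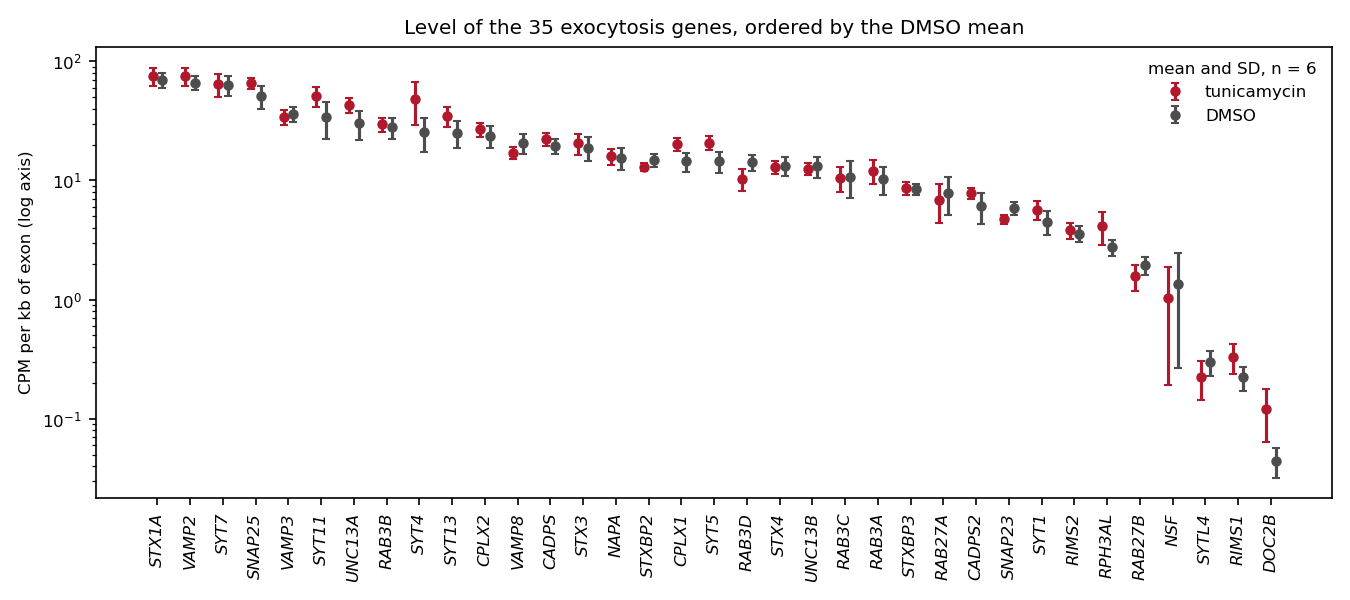
Mean level of each gene in CPM per kilobase of exon, on a log axis, with SD over 6 samples, for tunicamycin and DMSO, ordered by the DMSO mean. STX1A, VAMP2 and SYT7 lead with DMSO, and DOC2B is lowest in both groups. With tunicamycin the mean of SNAP25 is above that of SYT7.

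Among the 8 SNARE genes, SNAP23 was called lower and, with the sample number as a block, SNAP25 was called higher. SNAP23 (chr15:42491233-42545356, plus strand; gene positions are GRCh38 in GENCODE release 29) encodes the widely expressed relative of SNAP-25. It lay at 24.7, 27.7 and 30.8 CPM (lowest, median and highest sample) with tunicamycin and at 30.2, 34.7 and 39.2 CPM with DMSO. Each tunicamycin sample was below the DMSO sample of the same number, and within either batch the groups did not overlap. The share of all genes that lay apart within both batches was not computed. The log2 fold change was -0.30 ± 0.08 (SE), with an adjusted p of 0.0317 (0.0223 with the block). The call was lost on leaving out 9 of the 12 samples in turn, with adjusted p-values of up to 0.0739 (without tunicamycin 6), and it held without DMSO 3, DMSO 5 or tunicamycin 5. In the annotation, 27.4% of the exon length of SNAP23 overlaps genes on the opposite strand, LRRC57 among them, and the strand setting of the counting is not given, so its counts are uncertain.

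SNAP25, the neuronal and endocrine plasma membrane SNARE cut by botulinum toxins, lay at 186, 219 and 253 CPM with tunicamycin and at 140, 151 and 219 CPM with DMSO. It was higher with tunicamycin in 6 of 6 pairs of equal number, but the groups overlapped because DMSO 2 and DMSO 6 reached the tunicamycin values. Its log2 fold change was 0.37 ± 0.14, with an adjusted p of 0.129 with batch alone and 0.0167 with the block. STX1A lay at 216, 265 and 336 CPM with tunicamycin and at 196, 259 and 305 CPM with DMSO, and the groups overlapped almost wholly. Its log2 fold change of 0.11 ± 0.13 was not called (adjusted p = 0.682), although the value was higher in 6 of 6 pairs. The remaining SNARE genes were not called in either fit, with log2 fold changes of 0.18 ± 0.10 for VAMP2, 0.12 ± 0.15 for STX3, -0.04 ± 0.12 for STX4, -0.09 ± 0.11 for VAMP3 and -0.25 ± 0.13 for VAMP8. STX3 and STX4 are further syntaxins of the plasma membrane, and VAMP3 and VAMP8 serve recycling and lysosome-related or exocrine granules.

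Neither Sec1/Munc18 gene was called. STXBP2, the partner of STX3, lay at 66.2, 79.3 and 86.7 CPM with tunicamycin and at 76.5, 87.3 and 109 CPM with DMSO. It was lower with tunicamycin in every pair of equal number, but its log2 fold change of -0.18 ± 0.09 missed the threshold in both fits (adjusted p = 0.234, and 0.129 with the block). STXBP3, the partner of STX4, had a log2 fold change of 0.04 ± 0.08. The annotation places 16.4% of the exon length of STXBP2 under another gene on the same strand.

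The synaptotagmins and DOC2B had the highest median log2 fold change of the 8 role groups with batch as a covariate. All 7 genes had log2 fold changes above 0, with a median of 0.53, but that of SYT7 was below 0 with upper-quartile scaling (-0.0013), with the mesenchyme covariate (-0.2137), without tunicamycin 2 (-0.0852), without DMSO 1 (-0.0480) and without DMSO 5 (-0.0033). With batch as a covariate 3 of the 7 were called higher, and with the sample number as a block 5 of the 7 were. Both counts include DOC2B, which passed the filter only through its tunicamycin samples. Of all genes tested, 4.56% were called higher with batch and 8.92% with the block. With batch as a covariate, 48.29% of all genes tested had a log2 fold change above 0. Synaptotagmins outside the 35 genes and DOC2A were mixed in sign, and none was called in either fit. SYT2 (-0.27), SYT3 (-0.45), SYT9 (-0.10), SYT10 (-0.19), SYT17 (-0.24) and DOC2A (-0.34) had log2 fold changes below 0. Those of SYT6 (0.30), SYT12 (0.50), SYT14 (0.27) and SYT16 (0.11) were above 0. The shared direction thus holds only for the 7 listed genes. SYT4 (chr18:43267878-43277650, minus strand) encodes an atypical synaptotagmin of dense-core vesicles whose calcium binding is weak. It lay at 150, 193 and 372 CPM with tunicamycin and at 86.5, 97.7 and 183 CPM with DMSO. Number 2 was highest in both groups, and DMSO 2 exceeded 2 of the tunicamycin samples. The fold was 1.89 (log2 0.92 ± 0.21), with an adjusted p of 0.015 (0.000126 with the block), higher in 6 of 6 pairs. The call held on leaving out any 1 sample, with a highest adjusted p of 0.0461.

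SYT5 (chr19:55171199-55180441, minus strand), a calcium sensor of secretory granules, lay at 95.6, 103 and 133 CPM with tunicamycin and at 58.9, 73.6 and 102 CPM with DMSO. Only DMSO 6 reached into the tunicamycin range. The fold was 1.44 (log2 0.53 ± 0.13, adjusted p = 0.0257, and 0.00215 with the block), higher in 6 of 6 pairs. The call was lost without tunicamycin 2, DMSO 4, DMSO 5 or tunicamycin 6, with adjusted p-values of 0.0513 to 0.0678. DOC2B (chr17:142789-181636, minus strand), a calcium-binding protein related to the synaptotagmins, rested on few reads, 8 to 34 counts with tunicamycin and 5 to 9 counts with DMSO. It lay at 0.372, 0.799 and 1.39 CPM with tunicamycin and at 0.206, 0.264 and 0.436 CPM with DMSO, and tunicamycin 5 was below DMSO 4. The log2 fold change was 1.40 ± 0.40 (adjusted p = 0.0455, and 0.0403 with the block), and the call was lost on leaving out 10 of the 12 samples in turn (adjusted p = 0.0534 to 0.143), all but DMSO 4 and tunicamycin 5. It was also lost with limma-voom (adjusted p = 0.0567) and with no filter on low counts (adjusted p = 0.0883).

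SYT11 and SYT13 passed with the sample number as a block and not with batch alone. SYT11, like SYT4 an atypical member, lay at 182, 279 and 325 CPM with tunicamycin and at 107, 185 and 255 CPM with DMSO. It was higher in 5 of 6 pairs, number 6 being the exception. Its log2 fold change was 0.60 ± 0.21, with adjusted p = 0.105 and, with the block, 0.0139. SYT13, which lacks the residues for binding calcium, lay at 143, 186 and 246 CPM with tunicamycin and at 96.0, 132 and 183 CPM with DMSO. Its log2 fold change was 0.47 ± 0.17, with adjusted p = 0.111 and, with the block, 0.00243, higher in 6 of 6 pairs.

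SYT7, the high-affinity calcium sensor linked to glucagon and insulin granules, was the synaptotagmin with the highest level per kilobase and showed no call. It lay at 245, 383 and 502 CPM with tunicamycin and at 275, 361 and 472 CPM with DMSO, and number 1 was lowest and number 2 highest in each group. Its log2 fold change was 0.03 ± 0.17 (adjusted p = 0.945). SYT1, the fast sensor of neuronal synapses, averaged 37.0 ± 7.03 CPM with tunicamycin and 29.3 ± 6.92 CPM with DMSO and was not called (log2 fold change 0.34 ± 0.17). Beside these values, the summed level of 10 neuron markers was 776 to 950 CPM with tunicamycin and 753 to 1255 CPM with DMSO, and that of 10 pan-endocrine markers was 4303 to 6955 CPM with tunicamycin and 4224 to 6208 CPM with DMSO. Their part in these changes was not tested.

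**Figure D3:**
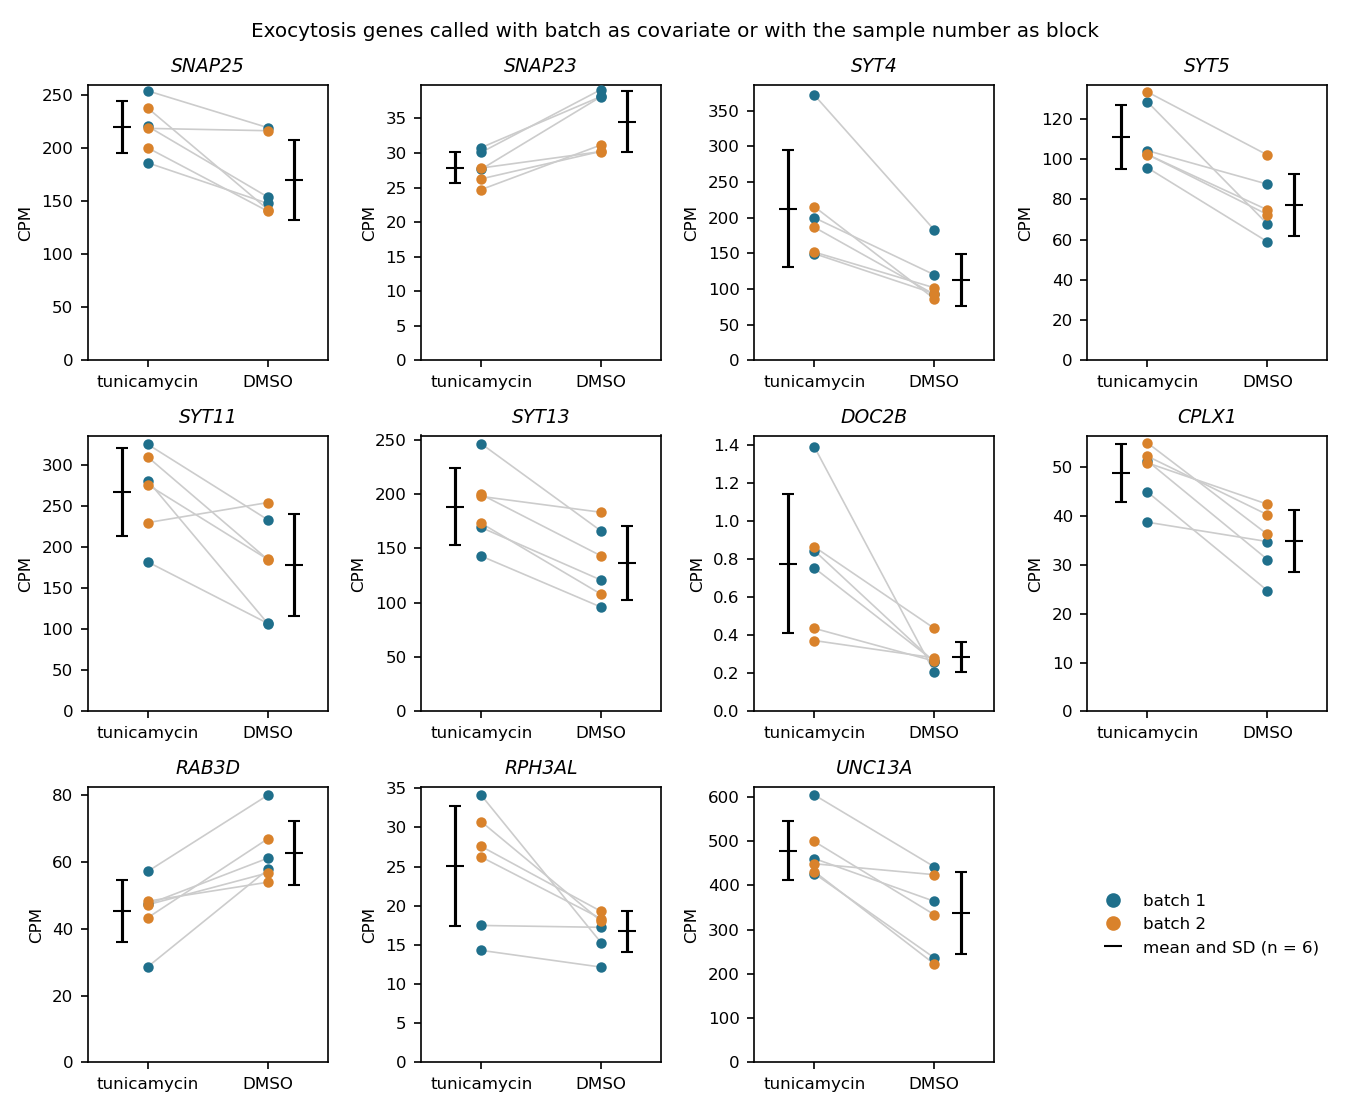
CPM of the 11 genes called with batch as a covariate or with the sample number as a block, in tunicamycin and DMSO samples. Points are samples coloured by sequencing batch, grey lines join equal numbers, and bars give mean and SD of 6 samples. SNAP23 and RAB3D lie lower with tunicamycin in every pair, SYT11 lies higher in 5 of 6 pairs and the other genes in all 6.

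Upstream sequences are shown for SYT4 and SYT5, the called genes with a promoter window partly outside annotated exons, and for UNC13A and STXBP3, the genes with a motif match. Windows are the 250 bases before the transcription start in RefSeq (GRCh38.p14), printed 5′ to 3′ on the gene's strand up to the first base that GENCODE release 29 places in an exon. A search for 3 short motifs covered both strands of the 42 windows of 27 of the 35 genes. They were the cAMP response element TGACGTCA, the unfolded protein response element TGACGTGG and the amino acid response element TGATGNAA in which N is any base. The first 2 of these share the letters TGACGT. Capitals mark matches. UNC13A lies on chromosome 19 and the stretch is chr19:17688366-17688604, minus strand; that of STXBP3 is chr1:108746424-108746673, plus strand; that of SYT4 is chr18:43277651-43277740, minus strand; and that of SYT5 is chr19:55180442-55180539, minus strand.
UNC13A: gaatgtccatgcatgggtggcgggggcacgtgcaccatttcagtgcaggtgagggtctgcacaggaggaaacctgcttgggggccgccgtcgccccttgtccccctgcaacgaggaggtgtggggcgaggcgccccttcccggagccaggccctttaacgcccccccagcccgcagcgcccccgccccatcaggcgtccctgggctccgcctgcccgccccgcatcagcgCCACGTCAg
STXBP3: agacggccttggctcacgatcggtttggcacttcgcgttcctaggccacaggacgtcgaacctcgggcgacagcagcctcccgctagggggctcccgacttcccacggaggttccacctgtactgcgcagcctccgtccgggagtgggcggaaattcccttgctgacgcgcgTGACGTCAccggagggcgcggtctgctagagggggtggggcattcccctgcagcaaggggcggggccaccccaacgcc
SYT4: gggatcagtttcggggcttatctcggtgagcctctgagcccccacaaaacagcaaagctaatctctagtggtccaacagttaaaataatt
SYT5: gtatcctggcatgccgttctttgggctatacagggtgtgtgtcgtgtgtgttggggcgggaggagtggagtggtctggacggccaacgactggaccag
The unfolded protein response element was matched in UNC13A, on the reverse strand from position -20 relative to the start, and it occurs in 0.612% of 35116 windows of all genes. The cAMP response element was matched in STXBP3 from position -78 and occurs in 1.65% of all windows. The amino acid response element (3.14% of all windows) was not matched in any of the 42 windows. The letters of the 250-base windows of SYT4 and SYT5 held none of the 3 motifs. No measurement of binding at these windows was made.

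Of the 2 complexins, CPLX1 rose and CPLX2 was not called. Complexins bind assembled SNARE complexes and both clamp and promote fusion. CPLX1 (chr4:784957-826198, minus strand) lay at 38.8, 51.1 and 55.0 CPM with tunicamycin and at 24.8, 35.6 and 42.5 CPM with DMSO. Only tunicamycin 1 lay within the DMSO range, and within either batch the groups did not overlap, a trait whose share over all genes was not computed. The fold was 1.41 (log2 0.49 ± 0.10, adjusted p = 0.00983, and 0.00613 with the block), higher in 6 of 6 pairs, and the call held on leaving out any 1 sample, with a highest adjusted p of 0.0303. CPLX2, the complexin with the higher level per kilobase, lay at 153, 197 and 223 CPM with tunicamycin and at 133, 163 and 221 CPM with DMSO (log2 fold change 0.18 ± 0.13, adjusted p = 0.463).

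None of the 6 Rab GTPase genes was called with batch as a covariate, and 4 of the 6 had log2 fold changes below 0. RAB3D, known from the granules of exocrine cells such as pancreatic acinar cells, lay at 28.6, 47.2 and 57.2 CPM with tunicamycin and at 53.9, 59.4 and 80.0 CPM with DMSO. It was lower with tunicamycin in every pair, and tunicamycin 1 was the lowest sample. The log2 fold change was -0.47 ± 0.15, with adjusted p = 0.0738 and, with the block, 0.00863. The sum of the 10 duct and acinar markers, given above, was lower with tunicamycin as well. Of these markers, 8 had log2 fold changes below 0 and 2 above 0. The part of duct and acinar cells in the RAB3D values was not tested. In the annotation 23.8% of the exon length of RAB3D overlaps genes on the opposite strand, CCDC159 among them.

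RAB3B, the Rab GTPase with the highest level per kilobase, lay at 281, 390 and 430 CPM with tunicamycin and at 257, 367 and 432 CPM with DMSO (log2 fold change 0.08 ± 0.14, adjusted p = 0.811). Number 1 was the lowest sample of both groups. RAB3A, the best studied Rab of synaptic and endocrine vesicles, and RAB3C had log2 fold changes of 0.23 ± 0.16 and -0.05 ± 0.19. RAB27A and RAB27B, which tether granules at the cell cortex, had log2 fold changes of -0.20 ± 0.20 and -0.31 ± 0.17, and each was lower with tunicamycin in 5 of 6 pairs. Neither was called in either fit.

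The Rab effectors link granules to docking sites. RPH3AL, an effector of Rab3 and Rab27 also known as Noc2, lay at 14.3, 26.9 and 34.1 CPM with tunicamycin and at 12.2, 17.7 and 19.3 CPM with DMSO. It was higher in 6 of 6 pairs, yet tunicamycin 1 and tunicamycin 3 stayed within the DMSO range. The log2 fold change was 0.58 ± 0.18, with adjusted p = 0.0672 and, with the block, 0.0184. RIMS2, a scaffold of docking sites and the effector with the highest DMSO level per kilobase, lay at 43.5, 51.3 and 62.5 CPM with tunicamycin and at 43.1, 45.1 and 59.5 CPM with DMSO. Its log2 fold change was 0.09 ± 0.09 (adjusted p = 0.612). RIMS1 and SYTL4, the granule docking protein granuphilin, had low counts and log2 fold changes of 0.57 ± 0.24 and -0.48 ± 0.29, neither called.

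Among the priming factors, UNC13A passed with the sample number as a block. It encodes Munc13-1, which opens syntaxin so that SNARE complexes can form. UNC13A lay at 427, 455 and 604 CPM with tunicamycin and at 223, 349 and 442 CPM with DMSO. All 6 pairs were higher with tunicamycin, while DMSO 3 overlapped the tunicamycin range. The fold was 1.42 (log2 0.50 ± 0.17), with adjusted p = 0.0944 and, with the block, 0.00652. Its relative UNC13B had a log2 fold change of -0.06 ± 0.13. CADPS and CADPS2, the CAPS proteins that prime dense-core granules, had log2 fold changes of 0.18 ± 0.12 and 0.37 ± 0.15, and neither was called in either fit.

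Neither gene of SNARE disassembly was called. NAPA, which encodes alpha-SNAP, lay at 72.0, 95.2 and 107 CPM with tunicamycin and at 69.5, 88.4 and 121 CPM with DMSO (log2 fold change 0.04 ± 0.10), and 16.9% of its exon length lies under genes on the opposite strand. NSF averaged 5.20 ± 4.25 CPM with tunicamycin and 6.79 ± 5.46 CPM with DMSO, and its highest values were 13.8 CPM in tunicamycin 2 and, with DMSO, 16.5 CPM in DMSO 2 and 9.81 CPM in DMSO 6, while all other samples lay at or under 4.84 CPM. NSF has a near-identical copy, NSFP1, that can share its reads, so its level is uncertain.

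An interaction term for treatment and sequencing batch asked whether the response differed between batches. None of the 35 genes was called (edgeR), and none had an unadjusted p under 0.05. DESeq2 also called none, and so did edgeR with the sample number as a block, where again none had an unadjusted p under 0.05. Over all genes edgeR called 0 of 17137 in either fit. The median log2 fold change of the 35 genes was 0.15 in batch 1 and 0.07 in batch 2. SYT4 changed by 0.87 in batch 1 and 0.98 in batch 2, SYT5 by 0.62 and 0.44, CPLX1 by 0.58 and 0.41, and SNAP23 by -0.37 and -0.22 on the log2 scale. DOC2B changed by 2.03 in batch 1, and in batch 2 alone it did not pass the filter.

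Related genes were also set against each other within each sample, as the log2 ratio of their CPM, in 10 pairs. The pairs were chosen with earlier results of these data known. SNAP23, SNAP25, UNC13A and RAB3D were called above in the same samples, so ratios that hold them are not separate evidence. Treatment labels were permuted within batches in an exact test, two-sided, with 400 arrangements and a smallest possible p of 0.005. This test did not use the sample numbers. The SNAP25 to SNAP23 log2 ratio was 2.95 ± 0.22 with tunicamycin and 2.26 ± 0.31 with DMSO (SD, n = 6 each), a difference of 0.68 (exact p = 0.005, adjusted over the 10 pairs 0.0167). The RAB3A to RAB3D log2 ratio was -1.04 ± 0.43 with tunicamycin and -1.76 ± 0.47 with DMSO, a difference of 0.72 (exact p = 0.015, adjusted 0.03). The UNC13A to UNC13B log2 ratio was 1.08 ± 0.13 with tunicamycin and 0.49 ± 0.25 with DMSO, a difference of 0.59 (exact p = 0.01, adjusted 0.025). Each of these 3 ratios was higher with tunicamycin in 6 of 6 pairs of equal number.

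The ratios of VAMP2 to VAMP3 and to VAMP8 were higher with tunicamycin too. VAMP2 to VAMP3 was 1.37 ± 0.32 with tunicamycin and 1.11 ± 0.26 with DMSO on the log2 scale, and VAMP2 to VAMP8 was 3.81 ± 0.23 with tunicamycin and 3.39 ± 0.18 with DMSO. Each had an exact p of 0.005 (adjusted 0.0167), and both ratios share VAMP2. The other 5 pairs missed the threshold. They were CPLX1 to CPLX2 (difference 0.30, adjusted exact p = 0.117), RIMS1 to RIMS2 (0.40, adjusted exact p = 0.193), STX1A to STX4 (0.14, adjusted exact p = 0.194), CADPS to CADPS2 (-0.22, adjusted exact p = 0.328) and RAB27A to RAB27B (0.12, adjusted exact p = 0.6). When signs were flipped within pairs of equal number, the 5 ratios each had the smallest p that 64 arrangements allow, 0.03125, and an adjusted p of 0.0625. With that floor, at least 7 of the 10 pairs would have to reach it for any to pass, so this test could not call 5. Without DMSO 3, tunicamycin 4, tunicamycin 5 or tunicamycin 6 none of the 10 passed, and without DMSO 2 the count was 3.

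**Figure D4:**
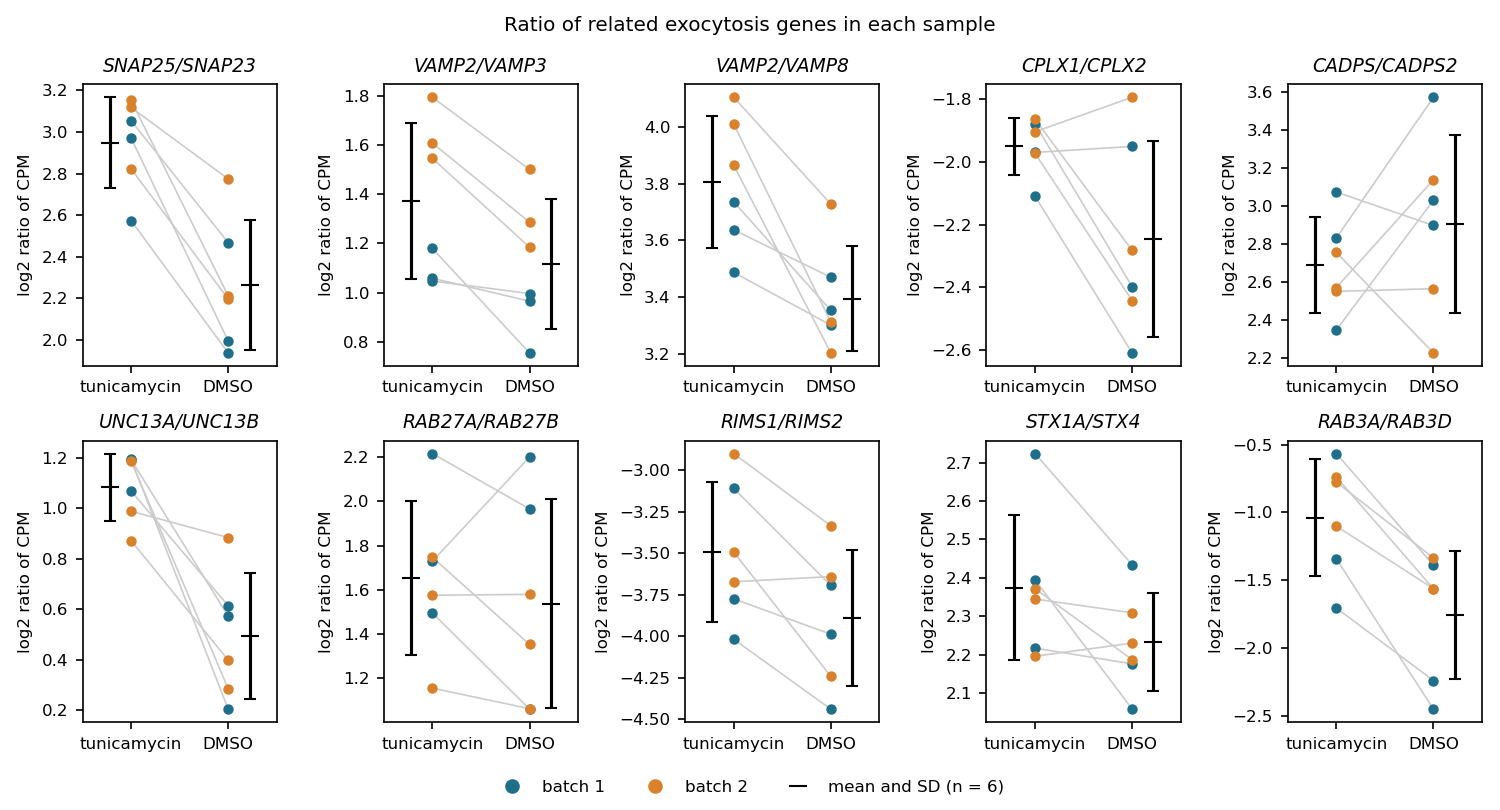
Log2 ratio of the CPM of 2 related genes in each sample, for 10 pairs, in tunicamycin and DMSO samples. Points are coloured by sequencing batch, grey lines join equal numbers, and bars give mean and SD. The ratios of SNAP25 to SNAP23, UNC13A to UNC13B, RAB3A to RAB3D and of VAMP2 to VAMP3 and to VAMP8 are higher with tunicamycin in all 6 pairs.

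Of 59 further exocytosis genes, 55 were tested, 3 were called higher and 3 lower, or 10.9% against 7.84% of all genes, and with the sample number as a block 7 were higher and 5 lower, or 21.8% against 17.3%. Their median log2 fold change was 0.04. BAIAP3, a Munc13 relative of dense-core vesicle traffic, averaged 118 ± 18.0 CPM with tunicamycin and 70.2 ± 9.03 CPM with DMSO (log2 fold change 0.74 ± 0.10, adjusted p = 0.000472). RIMS3 averaged 48.0 ± 21.0 CPM with tunicamycin and 18.7 ± 7.15 CPM with DMSO (log2 fold change 1.43 ± 0.28, adjusted p = 0.00561). RIMS4 averaged 18.1 ± 4.76 CPM with tunicamycin and 40.2 ± 12.9 CPM with DMSO (log2 fold change -1.17 ± 0.22, adjusted p = 0.00472). Both are short members of the RIM family. RPH3A (rabphilin, a Rab3 effector) and STXBP6 (amisyn, which binds syntaxin) were lower by log2 fold changes of -1.78 ± 0.37 (adjusted p = 0.0093) and -0.96 ± 0.23 (adjusted p = 0.0214). The groups overlapped in RIMS3, RIMS4, RPH3A, STXBP6 and STX11. They lay apart in BAIAP3, as in 3.77% of all genes. RIMS3 lay at 24.4 to 79.5 CPM with tunicamycin and at 8.96 to 27.8 CPM with DMSO. RIMS4 lay at 10.6 to 24.9 CPM with tunicamycin and at 21.2 to 59.2 CPM with DMSO. RPH3A lay at 0.151 to 2.45 CPM with tunicamycin and at 0.446 to 9.69 CPM with DMSO. STXBP6 lay at 7.36 to 22.3 CPM with tunicamycin and at 14.9 to 46.8 CPM with DMSO. STX11 was higher (1.62 ± 0.44, adjusted p = 0.0368) at means of 1.13 CPM with tunicamycin and 0.372 CPM with DMSO. Without the sample that mattered most, the adjusted p of STX11 was 0.125 and that of STXBP6 0.0516.

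Among 20 SNAREs and Sec1/Munc18 proteins of the ER and Golgi, 2 were called higher and none lower (edgeR), or 10% against 7.84% of all genes, and 3 were higher and 1 lower with the block, or 20% against 17.3%. STX5, the Golgi syntaxin, averaged 56.8 ± 9.23 CPM with tunicamycin and 35.1 ± 4.80 CPM with DMSO (log2 fold change 0.69 ± 0.09, adjusted p = 0.000264). BET1, its partner on ER-derived vesicles, averaged 34.4 ± 3.84 CPM with tunicamycin and 23.6 ± 4.64 CPM with DMSO (0.56 ± 0.12, adjusted p = 0.00972). Of 8 genes of endosome and lysosome fusion (SNAREs, Sec1/Munc18 proteins and tethering proteins) none was called with batch as a covariate and 1 was lower with the block. The list medians were 0.11 for the ER and Golgi genes, as for the 35 genes, and -0.06 for the endosome and lysosome genes.

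**Figure D5:**
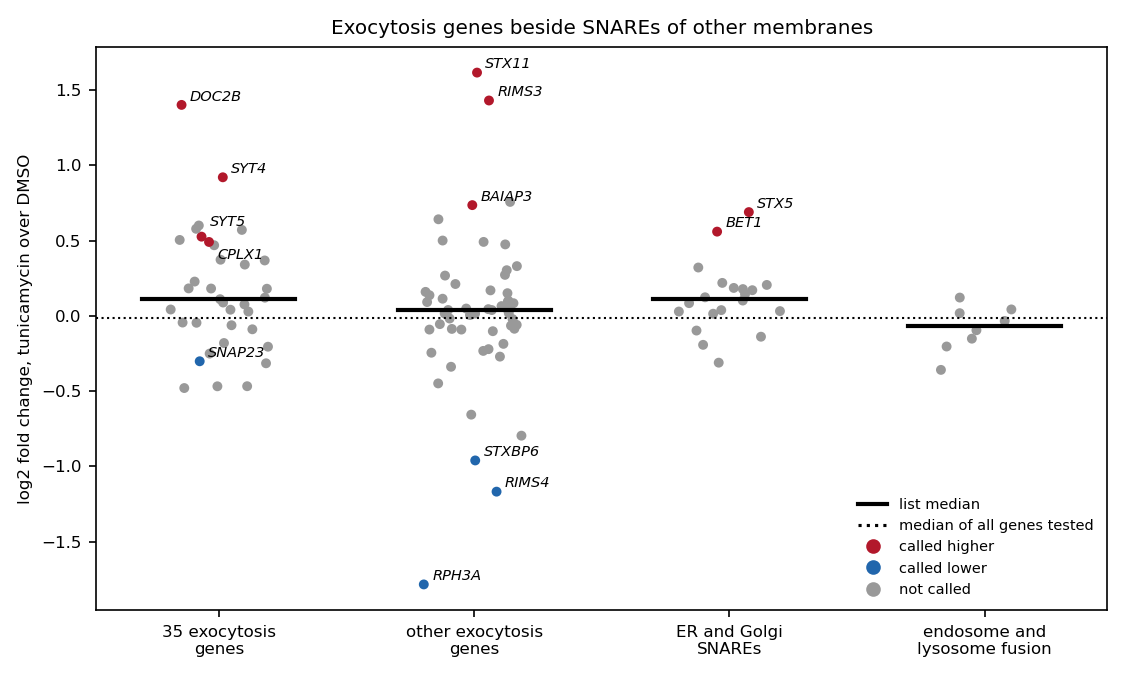
Log2 fold change, tunicamycin over DMSO, of the 35 genes, the 55 tested further exocytosis genes, 20 ER and Golgi genes and 8 genes of endosome and lysosome fusion. Each point is a gene, black bars are list medians and the dotted line is the median of all genes tested; the named genes are those called with batch as a covariate.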

How the data were processed

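RNA of 12 samples was sequenced, with RNA isolated by Qiagen RNeasy Mini columns and libraries made with NEBNext Ultra II RNA reagents, per the labels' protocols. The authors deposited whole-number counts of reads, not normalized, in 1 table of 28278 gene symbols. The submitters' processing notes name cutadapt 4.4, HISAT2 2.1.0, featureCounts 2.0.6 and the GRCh38 build. Strand setting and annotation are not given there, so genes that overlap others are uncertain. Totals were 17523442 to 28872269 counts per sample, and no samples of a group agreed within sampling noise (chi-square per gene 10.9 to 99.6).

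The 35 genes, the other gene lists and the 10 pairs were chosen with earlier results of these data known. Per-sample values are given for genes called in either fit and for the gene with the highest DMSO level per kilobase in each role, and other lists by their counts and up to 6 called genes. Genes were filtered with filterByExpr in edgeR 4.0.16 (R 4.3.3; minimum count 10), which left 17137 genes. CPM values use TMM-scaled library sizes. Treatment was tested with edgeR's two-sided quasi-likelihood test in a model with sequencing batch, with Benjamini-Hochberg adjustment over all genes tested and a threshold of 0.05. Standard errors of log2 fold changes (tunicamycin over DMSO) were taken from the F statistic. Alternatives used DESeq2 1.42.0, limma 3.58.1 (voom), other scaling factors, no filter, no batch covariate, each batch alone and each sample left out. Pair ratios added a pseudocount of 0.5 CPM. Levels per kilobase use the merged exon length in GENCODE release 29, and promoter windows come from RefSeq (GRCh38.p14), which held 27 of the 35 genes.

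Equal numbers were taken to pair the samples. Same-numbered samples deviated together from the means of their group and batch, with correlations of 0.505, 0.579, 0.519, 0.120, 0.184 and 0.183 for numbers 1 to 6, although numbers 4 and 5 correlated more with another number (0.196 and 0.273). The sample titles call the numbers biological replicates. Whether replicates were separate differentiations, and what samples of equal number share, is not stated in the labels. The p-values therefore measure only the spread among these 12 samples, which may leave out spread between differentiations. Blocked fits are given where they change a call. A result for 1 gene outside the 35 is not reported here.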

Additional observations from a re-analysis of the deposited data

Results flagged for a closer look

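In 4 of 70 sets of 6 samples (35 genes in each of 2 groups), 1 sample lay further from its neighbours than Dixon's critical value allows, and chance flags about 1 in 20 such sets. STXBP2 was low in tunicamycin 1, at 66.24 CPM, where the other tunicamycin samples held 79.1 to 86.7 CPM. RAB3B was low in the same sample, at 281.2 CPM against 369 to 430 CPM. NSF was high in tunicamycin 2, at 13.82 CPM against 2.98 to 4.13 CPM in the other tunicamycin samples. DOC2B was high in DMSO 4, at 0.4361 CPM against 0.206 to 0.281 CPM in the other DMSO samples.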

How the results depend on the processing

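Of the 35 genes, 4 were called higher and 1 lower. The counts higher were 9 with the replicate block, 7 with DESeq2, 0 in batch 1 only, 2 in batch 2 only, 0 with the mesenchyme covariate and 1 on leaving out both samples numbered 5, and 2 to 6 on leaving out 1 sample. The counts lower were 2 with the replicate block, with upper-quartile scaling and with DESeq2, and 0 with no filter, with no batch covariate, in batch 1 only, in batch 2 only and on leaving out both samples numbered 1 or both numbered 5, and 0 to 1 on leaving out 1 sample. Leaving out both samples of a number was chosen after seeing the data. Without these pairs, SYT4, SYT5, DOC2B and SNAP23 lost their calls for number 5 (adjusted p = 0.0743, 0.0743, 0.0771 and 0.0533), with log2 fold changes of 0.90, 0.53, 1.57 and -0.34, and DOC2B and SNAP23 for number 1 (0.183 and 0.0824; log2 fold changes 1.09 and -0.30). Of all genes 1344 were called, and 2967 with the replicate block, 2100 with DESeq2, 57 in batch 1 only, 654 in batch 2 only, 860 with the mesenchyme covariate, 685 without both numbered 5, and 791 to 1399 on leaving out 1 sample (791 without tunicamycin 4). The pairs called were 5, and 0 to 6 on leaving out 1 sample; with the replicate block the count was 0, which the smallest possible p of that test fixed. A block for the interaction was added after seeing the data. The interaction count was 0 in all 4 settings run.

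DESeq2 also called SYT11, RPH3AL and UNC13A higher (adjusted p = 0.0409, 0.026 and 0.0383) and RAB3D lower (0.0285). Of 839 alternative values of single genes, 19 changed sign, none in a called gene. With the mesenchyme covariate these were STX1A (-0.0458), STX3 (-0.1066), SYT7 (-0.2137), CPLX2 (-0.0232) and RAB3B (-0.0828). SYT7 also changed with upper-quartile scaling (-0.0013), without both numbered 5 (-0.0048) and on leaving out 1 sample (-0.0852 to 0.1357 over the 12 fits). SYTL4 changed in batch 1 only (0.0464) and UNC13B in batch 2 only (0.0197). On leaving out 1 sample, STX4 (-0.1101 to 0.0672), RAB3C (-0.1517 to 0.1381) and UNC13B (-0.1451 to 0.0165) changed sign in 1, 4 and 2 of 12 fits. The cause was not tested. DOC2B gave no value in batch 2 only. Its 5 to 34 counts per library limit its precision.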
